A study of Mus musculus with 10 samples.

Results

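Dbx1, Evx1, Evx2, Pax2, Lhx1, Lhx5, En1 and Lmx1b are transcription factor genes whose combinations mark classes of hindbrain and spinal cord interneurons during development. These 8 genes, of 55367 listed, were chosen by name as factors of the V0, V1, V2 and dorsal lineages, with earlier results of these data known. Their expression was read in each of 10 single neurons of the preBötzinger complex (preBötC), the medullary site that generates the inspiratory rhythm. Of the 8, 5 reached 1 FPKM (fragments per kilobase of gene, scaled to the fragments counted on genes in that library) in at least 1 neuron, and 3, Dbx1, Evx1 and Lmx1b, had no fragment in any neuron. Over all listed genes, 29.9% reached 1 FPKM in at least 1 neuron.

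Inspiratory neurons were recorded in brainstem preparations of neonatal mice, their contents were drawn into the patch pipette, and 1 library was made per neuron. Samples 1, 5, 6 and 7 came from Dbx1;Ai148 mice, offspring of Dbx1Cre and Ai148 parents on a C57Bl/6J or mixed C57Bl/6J and CD1 background. In these animals the Dbx1 promoter drives Cre, Cre turns on the calcium indicator GCaMP6f, and neurons were picked by rhythmic fluorescence. Samples 2, 3, 4, 8, 9 and 10 came from CD-1 wild-type mice, which carry no reporter, so these neurons were picked by activity in time with hypoglossal motor output and their lineage is not labelled. Samples 4 (CD-1, P3), 5 (P0), 6 (P3) and 7 (P3) were of the Type-1 electrical phenotype, sample 1 (P0) was Type-2, and samples 2 (P2), 3 (P0), 8 (P0), 9 (P2) and 10 (P1) were of Unknown phenotype. All Unknown neurons were CD-1 and the only Type-2 neuron was Dbx1;Ai148, so line and electrical phenotype cannot be told apart. The labels name no animal, so a line counts here as 1 sample, no test was made between lines, and each mean ± SD describes the spread over neurons.

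During development, progenitors along the dorsoventral axis of the hindbrain express distinct homeodomain factors, and the neurons they produce switch on further factors after the last division. Dbx1 is expressed in progenitors of the V0 domain and is turned off as neurons are born. Evx1 and its relative Evx2 mark ventral V0 neurons, En1 marks V1 neurons, which are largely inhibitory, and Lmx1b marks a dorsal excitatory class and serotonergic neurons. Pax2 and the LIM-homeodomain genes Lhx1 and Lhx5 are shared among several classes, and Pax2 is best known from inhibitory interneurons. Neurons of the Dbx1 lineage make up much of the excitatory core of the preBötC.

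The set holds 2 pairs of close relatives, Lhx1 with Lhx5 and Evx1 with Evx2, and the stretch of 90 coding bases within the homeobox is shown for each because fragments assigned to the wrong relative would change the pattern reported below. Sequences were read from GRCm38 with GENCODE M21, 5′ to 3′ on the coding strand, and capitals mark the bases that differ from the relative.
Lhx1: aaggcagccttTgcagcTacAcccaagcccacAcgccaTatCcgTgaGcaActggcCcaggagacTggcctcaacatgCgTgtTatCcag
Lhx5: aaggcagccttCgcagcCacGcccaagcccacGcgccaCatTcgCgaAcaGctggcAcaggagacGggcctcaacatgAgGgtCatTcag
Evx1: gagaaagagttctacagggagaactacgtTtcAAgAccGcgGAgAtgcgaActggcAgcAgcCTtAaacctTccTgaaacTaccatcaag
Evx2: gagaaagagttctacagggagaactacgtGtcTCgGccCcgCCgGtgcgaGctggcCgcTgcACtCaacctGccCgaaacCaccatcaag

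The Lhx1 stretch lies in exon 3 of 5 on the minus strand of chromosome 11 (chr11:84521691-84521780), and the Lhx5 stretch in exon 3 of 5 on the plus strand of chromosome 5 (chr5:120435539-120435628). The Evx1 stretch lies in exon 2 of 3 on the plus strand of chromosome 6 (chr6:52315905-52315994), and the Evx2 stretch in exon 2 of 3 on the minus strand of chromosome 2 (chr2:74657767-74657856). Even here, within the homeobox, Lhx1 and Lhx5 differed at 15 bases and Evx1 and Evx2 at 17. Between the transcripts with the longest coding sequence of each gene, the longest run shared by Lhx1 and Lhx5 was 20 bases and that shared by Evx1 and Evx2 was 32 bases. The Evx2 transcript compared held 1428 bases of the 4191 over which its fragments were counted, so the rest was not compared. Identity over the aligned coding bases was 72.3% for the LIM-homeodomain pair and 65.3% for the Evx pair. In the counts the relatives parted as well. Sample 2 held 6420 Lhx1 fragments and 2 Lhx5 fragments, sample 8 held 55 Lhx1 and 862 Lhx5 fragments, and samples 6 and 7 held 1686 and 1520 Evx2 fragments and no Evx1 fragment.

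Libraries held between 21392146 and 36629393 fragments counted on genes. Samples 1, 2, 3 and 4 had the lowest cDNA concentrations before library preparation, by the study's account, and detected 5055 to 6795 genes at 1 FPKM. Sample 4 stood apart further: its 8 neuron markers summed to 58.4 FPKM against at least 761 in every other neuron, Snap25 stood at 3.63 FPKM against at least 95.7, and its 8 microglia markers summed to 15054 FPKM. Sample 9 held cholinergic motoneuron markers, with Slc18a3 at 444 and Prph at 719 FPKM. Glial markers were not spread evenly over the lines. The summed microglia markers ranged from 1.08 to 117 FPKM in Dbx1;Ai148 and from 0.667 to 15054 FPKM in CD-1 neurons, the 9 astrocyte markers from 3.98 to 464 and from 15.6 to 5450.2 FPKM, and the 6 oligodendrocyte lineage markers from 0.101 to 54.4 and from 0 to 337 FPKM. By the 2-fold rule given below, 8 of the 8 microglia, 6 of the 8 astrocyte and 5 of the 5 oligodendrocyte lineage markers compared were higher in CD-1 neurons, against 26.9% of all genes compared, and none was higher in Dbx1;Ai148 neurons. Without samples 2, 3 and 8 these counts were 8 of 8, 3 of 6 and 0 of 2, with 2 astrocyte markers and 1 oligodendrocyte lineage marker higher in Dbx1;Ai148. Those neurons were the ones with 3 or more astrocyte and 3 or more microglia markers at 10 FPKM. Sample 4, with the highest microglia sum, was kept, so the 8 of 8 does not show the lines without strong microglia signal. The part of glial transcripts in the differences between lines was not tested. Gfap had no fragment in samples 3, 6, 7, 9 and 10, and Olig2 had none in samples 1, 3, 4, 6, 7, 9 and 10.

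Dbx1 (chromosome 7, 49631499 to 49636849, minus strand), the factor that defines V0 progenitors and whose promoter drives Cre in the reporter line, had 0 fragments in all 4 Dbx1;Ai148 and all 6 CD-1 neurons. At the summed depth of each line, 3 counts, the limit that a count of 0 allows, correspond to 0.0125 FPKM in the Dbx1;Ai148 and 0.00815 FPKM in the CD-1 neurons. Evx1 (chromosome 6, 52313498 to 52318378, plus strand) was at 0 throughout as well, with limits of 0.00905 and 0.00592 FPKM. Lmx1b (chromosome 2, 33560965 to 33640511, minus strand), the dorsal and serotonergic factor, was likewise at 0, with limits of 0.00523 and 0.00342 FPKM. The amplified cDNA carried no molecular identifiers, so these limits and the intervals below cover counting error only.

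Evx2 (chromosome 2, 74652991 to 74659557, minus strand) was expressed in the 3 Type-1 neurons of the Dbx1;Ai148 line. Its level was 1.89 FPKM in sample 5, 12.8 in sample 6 and 14.1 in sample 7, from 290 (exact 95% Poisson interval 258 to 325), 1686 (1606 to 1768) and 1520 (1445 to 1598) fragments. It was at 0 in sample 1, the Type-2 neuron of the same line. In the CD-1 neurons Evx2 was at 0 in samples 2 and 4, 0.0460 in sample 3, 0.126 in sample 8, 0.0432 in sample 9 and 0.00782 FPKM in sample 10. Only the 3 Type-1 Dbx1;Ai148 neurons were at 1 FPKM or more, and of the genes that reached that level in any neuron 0.284% did so in these 3 neurons and in no other. This pattern of 3 neurons was chosen after the values were seen.

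Pax2 (chromosome 19, 44756045 to 44837871, plus strand), a paired-box factor of several interneuron classes, was at 1 FPKM or more in the same 3 Type-1 neurons and in sample 10. Its level was 6.81 FPKM in sample 5, 9.13 in sample 6, 2.20 in sample 7 and 2.77 in sample 10. It was 0.606 in sample 8, 0.356 in sample 3, 0.0168 in sample 9 and 0.0126 FPKM in sample 4, and it was at 0 in samples 1 and 2. The CD-1 neuron of sample 10 was thus above the Dbx1;Ai148 neuron of sample 7, and the lines overlapped.

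Lhx5 (chromosome 5, 120431699 to 120441223, plus strand), a LIM-homeodomain factor, was at 22.7 FPKM in sample 5, 16.1 in sample 6, 14.2 in sample 7 and 12.1 in sample 8. Every other neuron was below 1 FPKM: 0.451 in sample 10, 0.0674 in sample 9, 0.0205 in sample 2, 0.0126 in sample 4, 0.0119 in sample 3 and 0 in sample 1. The gap between the 4 high neurons and the rest was thus wide, and it did not follow the lines, since sample 8 was CD-1 and sample 1 was Dbx1;Ai148.

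Lhx1 (chromosome 11, 84518284 to 84525535, minus strand), the relative of Lhx5, was the most abundant and the most widespread of the factors per length. It was at 2.39 FPKM in sample 1, 30.9 in sample 5, 82.2 in sample 6 and 2.48 in sample 7 of the Dbx1;Ai148 line. In CD-1 neurons it was 43.5 in sample 2, 2.95 in sample 10, 0.508 in sample 8, 0.350 in sample 4, 0.167 in sample 9 and 0.0158 FPKM in sample 3. All 4 Dbx1;Ai148 neurons and 2 of 6 CD-1 neurons were at 1 FPKM or more, and the lines overlapped because sample 2 was above 3 of the Dbx1;Ai148 neurons.

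En1 (chromosome 1, 120602418 to 120607992, plus strand), the defining factor of V1 neurons, was at 7.41 FPKM in sample 1, from 416 fragments (377 to 458), and at 7.23 FPKM in sample 10, from 579 fragments (533 to 628). It was 0.399 in sample 2, 0.0173 in sample 9 and 0.0148 FPKM in sample 7, and 0 in samples 3, 4, 5, 6 and 8. Samples 1 and 10 thus stood far above all others, and they belong to different lines. Of the genes that reached 1 FPKM in any neuron, 0.242% did so in samples 1 and 10 and in no other, a pair of neurons chosen after the values were seen.

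**Figure D1:**
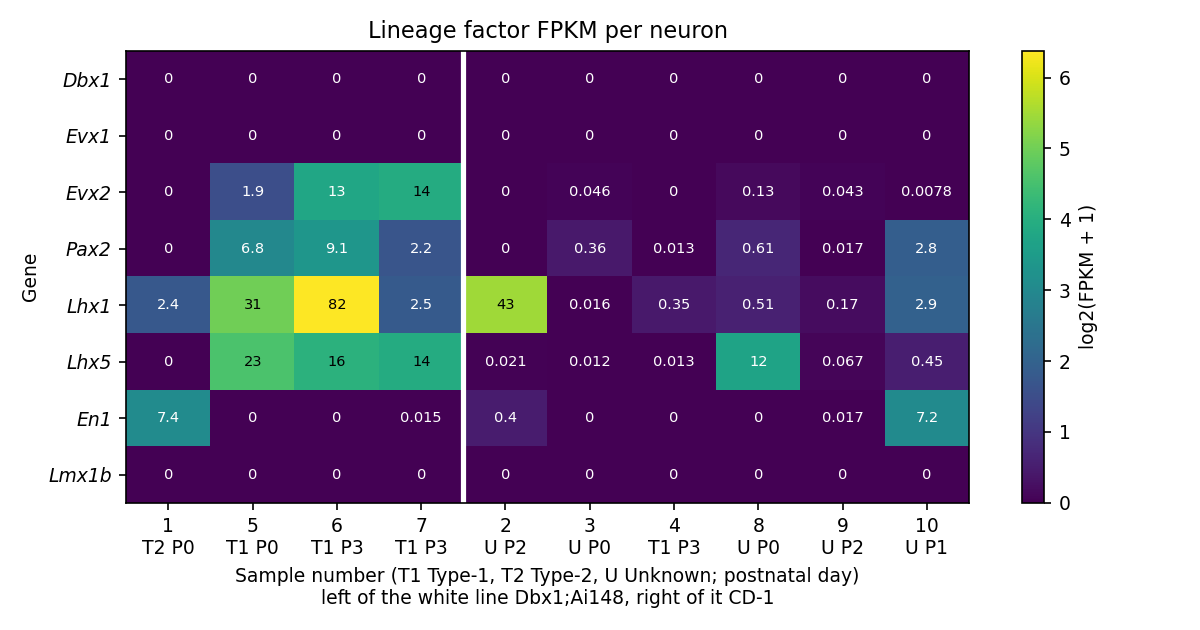
Heat map of the 8 factors (rows) in the 10 neurons (columns, Dbx1;Ai148 left and CD-1 right of the white line, with phenotype and postnatal day), colour giving log2(FPKM + 1) and printed numbers giving FPKM. Samples 5, 6 and 7 share Evx2, Pax2, Lhx1 and Lhx5, samples 1 and 10 share En1, and Dbx1, Evx1 and Lmx1b are at 0 in every neuron.

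Of the 80 combinations of a factor and a neuron, 19 were at 1 FPKM or more and 41 had no fragment. Samples 5, 6 and 7 each held Evx2, Pax2, Lhx1 and Lhx5 at 1 FPKM or more and En1 below it. The same 3 neurons were at 1 FPKM or more for 34.2% of the genes that reached that level in any neuron, so sharing of a gene among them was common, and their libraries detected 8720 to 9223 genes at 1 FPKM. Sample 1, their line mate, held Lhx1 and En1 with no fragment of Evx2, Pax2 or Lhx5, and detected 5065 genes. Among CD-1 neurons, sample 10 held Pax2, Lhx1 and En1, sample 2 held Lhx1 alone, sample 8 held Lhx5 alone, and samples 3, 4 and 9 held none. Samples 5, 6, 7 and 10, which detected 8720 to 9223 genes, held 3 or 4 factors, and samples 1, 2, 3, 4 and 9, which detected 5055 to 6795, held 0 to 2. Sample 8 detected the most genes, 9307, and held 1 factor. The part of the number of genes detected was not tested. The 8 factors together summed to 120.1 FPKM in sample 6, 62.3 in sample 5, 43.9 in sample 2, 33.0 in sample 7 and at most 13.4 in each other neuron, with 0.430, 0.376 and 0.312 in samples 3, 4 and 9. A low level of a factor and a low recovery of its RNA cannot be told apart.

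Levels of Evx2, Pax2 and Lhx5 had the highest correlations among the 5 detected factors. Over the 10 neurons and on the log2(FPKM + 1) scale, Pearson's r was 0.724 for Evx2 with Pax2, 0.753 for Evx2 with Lhx5 and 0.780 for Pax2 with Lhx5, with Spearman's rho of 0.806, 0.791 and 0.851. Lhx1 had r of 0.627 with Pax2 (rho of 0.419), 0.482 with Evx2 (rho of 0.215) and 0.438 with Lhx5 (rho of 0.576), and Lhx1 and Pax2 were both at 1 FPKM or more in 4 neurons, the most of any pair. En1 ran against Evx2 (r of -0.341) and Lhx5 (r of -0.406), and no neuron held En1 with either at 1 FPKM or more. These coefficients describe 10 neurons of both lines, 3 of which carry most of the signal of the first 3 genes, and many values are at or near 0.

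For each of the 5 detected factors, genes with the nearest profile over the 10 neurons were sought among the 7704 genes that reached 10 FPKM in 2 or more neurons. For Evx2 the nearest was Kcna4, an A-type potassium channel gene, with r of 0.993 and levels of 4.23, 21.4 and 19.1 FPKM in samples 5, 6 and 7 and at most 0.0562 FPKM elsewhere, followed by Asb1 (r of 0.984) and Gm10699 (r of 0.971). For En1 the nearest was Pax8 (r of 0.993), a paired-box gene of the same subfamily as Pax2, followed by Mab21l1 (r of 0.990, 116.5 and 67.0 FPKM in samples 1 and 10) and Adarb2 (r of 0.977, 34.1 and 21.1 FPKM). Nearest to Lhx5 were Mpdu1 (r of 0.992), Mtg1 (r of 0.991) and Dmtf1 (r of 0.990), to Pax2 Zfp647 (r of 0.973), Strada (r of 0.962) and Dhx40 (r of 0.958), and to Lhx1 Slc35f5 (r of 0.948), Exog (r of 0.939) and Mtrf1 (r of 0.937). Spearman's rho for these 15 genes lay between 0.486 and 0.903, and ranking by rho in place of r named none of the same 3 genes for any of the 5 factors.

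By mouse line, 4 of the 5 detected factors had a mean at least 2-fold higher in Dbx1;Ai148 neurons, measured as a difference of 1 or more in log2(mean FPKM + 1) among genes with a mean of 1 FPKM or more in at least 1 line, and 0 were that much higher in CD-1 neurons. Of all 14320 genes compared, 28.4% were called higher in Dbx1;Ai148 and 26.9% higher in CD-1 neurons, so differences of this size between the lines were common. A gene at 0 in 1 line that passes the filter through the other is always called. Evx2 and Pax2 passed it through the Dbx1;Ai148 line alone, with CD-1 means of 0.0371 and 0.627 FPKM. The median difference was 1.77 over the 5 factors and 0.08 over all genes compared. The factors were chosen with earlier results of these data known, so these shares and medians are no test of the set. None of the 5 factors separated the lines without overlap, which 2.05% of all genes did. The split of calls over all genes moved with the scaling, from 4074 higher in Dbx1;Ai148 against 3859 higher in CD-1 as deposited to 5887 against 3953 as TPM, 3786 against 4612 with TMM library sizes, 4040 against 5588 with DESeq2 size factors, and 3718 against 2163 for means of log2 values.

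Evx2 was at 7.20 ± 7.28 FPKM (SD, n = 4) in Dbx1;Ai148 and 0.0371 ± 0.0481 FPKM (SD, n = 6) in CD-1 neurons, a log2 difference of 2.98. The summed counts were 3496 and 25, which gave 7.24 FPKM (7.00 to 7.49) and 0.0339 FPKM (0.0219 to 0.0500). Lhx5 was at 13.2 ± 9.55 FPKM (SD, n = 4) against 2.11 ± 4.88 (SD, n = 6), a log2 difference of 2.20. Without sample 8, the single CD-1 neuron with Lhx5 above 1 FPKM, that difference was 3.68. Pax2 was at 4.54 ± 4.18 FPKM (SD, n = 4) against 0.627 ± 1.08 (SD, n = 6), a log2 difference of 1.77. For these 3 genes the difference stayed above 1 without any single neuron, and the SD over neurons was larger than the mean in 4 of these 6 groups of a gene and a line.

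Lhx1 and En1 depended on single neurons. Lhx1 was at 29.5 ± 37.6 FPKM (SD, n = 4) in Dbx1;Ai148 and 7.91 ± 17.5 FPKM (SD, n = 6) in CD-1 neurons, a log2 difference of 1.77. Without sample 6 the Lhx1 difference was 0.53 and no longer counted as 2-fold, without sample 2 it was 4.08, and with DESeq2 size factors it was 0.33. En1 was at 1.86 ± 3.70 FPKM (SD, n = 4) against 1.27 ± 2.92 (SD, n = 6), a log2 difference of 0.33, and the summed counts gave 1.38 FPKM (1.25 to 1.52) against 1.34 FPKM (1.23 to 1.45). The En1 difference was -1.18 without sample 1, 1.40 without sample 10, and 1.88 with DESeq2 size factors. Leaving out samples 1 to 4, those lowest in cDNA, gave 3.32 for Evx2, 1.73 for Pax2, 4.16 for Lhx1, 1.84 for Lhx5 and -1.77 for En1, which then counted as higher in CD-1 with sample 10 as the only neuron at 1 FPKM. Leaving out sample 4, the neuron with few neuronal transcripts, gave 2.97 for Evx2, 1.66 for Pax2, 1.55 for Lhx1, 2.01 for Lhx5 and 0.18 for En1. Leaving out sample 9, the neuron with motoneuron markers, gave 2.98, 1.66, 1.54, 2.02 and 0.18.

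**Figure D2:**
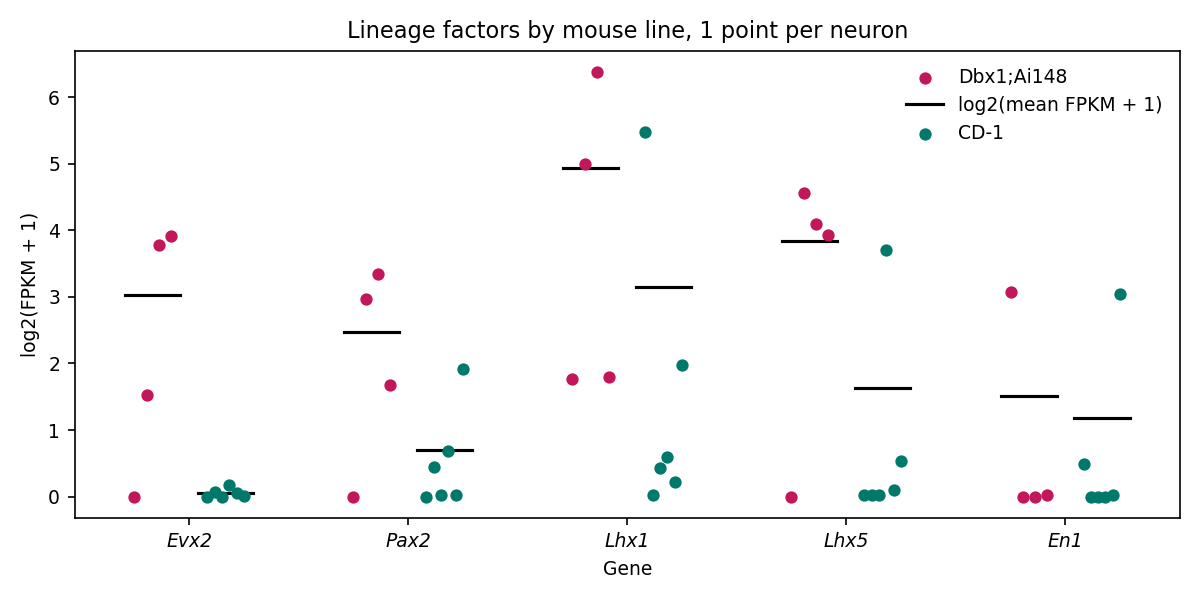
log2(FPKM + 1) of the 5 detected factors, 1 point per neuron, for 4 Dbx1;Ai148 and 6 CD-1 neurons, with bars at log2(mean FPKM + 1) of each line. Points of the lines overlap for each factor, and in Lhx1, Lhx5 and En1 a single CD-1 neuron lies far above the others of its line.

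Per length and over all 10 neurons, the order of the mean levels was Lhx1 at 16.5 ± 27.7 FPKM, Lhx5 at 6.56 ± 8.76, Evx2 at 2.90 ± 5.60, Pax2 at 2.19 ± 3.25 and En1 at 1.51 ± 3.07 (SD, n = 10 each), above Dbx1, Evx1 and Lmx1b at 0. No neighbours in this order differed by more than the larger of their SDs over neurons. The highest neuron alone gave 49.7% of the summed FPKM of Lhx1, 34.6% of that of Lhx5, 48.7% for Evx2, 41.7% for Pax2 and 49.2% for En1. Within the Type-1 phenotype, where both lines are present, the 3 Dbx1;Ai148 neurons held Evx2, Pax2, Lhx1 and Lhx5 and the CD-1 neuron, sample 4, held none of them at 1 FPKM. That CD-1 neuron is the library with few neuronal transcripts. By age, Evx2 was at 1 FPKM or more in 1 of 4 neurons at P0, in 0 of 3 at P1 and P2 together and in 2 of 3 at P3, and the P3 neurons above that level were both Type-1 and Dbx1;Ai148, so age, type and line cannot be told apart.

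Transmitter genes were read beside the factors. Slc17a6, the vesicular glutamate transporter of most hindbrain excitatory neurons, was at 101, 158, 156 and 230.4 FPKM in samples 5, 6, 7 and 8 and at most 1.85 FPKM in the others. These 4 neurons were the same 4 in which Lhx5 was at 1 FPKM or more, and 3 of the 4 held Evx2 and Pax2. Slc6a5, the neuronal glycine transporter, was at 146 FPKM in sample 1 and 8.60 FPKM in sample 10, the neurons with En1, and at most 0.178 FPKM elsewhere. Gad1, which makes GABA, was at 71.8 FPKM in sample 1, 92.0 in sample 10, 37.2 in sample 3 and 8.28 in sample 8. Gad2 was at 43.5, 34.2 and 22.9 FPKM in samples 1, 10 and 3, with 5.14 in sample 7 and 2.53 in sample 4. Slc32a1, the vesicular transporter for GABA and glycine, was at 5.95 FPKM in sample 2, which held 0.0144 FPKM of Gad1 and 0.263 of Gad2, but at 0.0167 and 0.375 FPKM in samples 1 and 10. Pax2 was thus higher in samples 5 and 6, which held Slc17a6 and at most 0.0179 FPKM of Gad1, than in sample 10, which held Gad1, Gad2 and Slc6a5, and it was at 0 in sample 1, which held all 3 as well. The matches of factors with transmitter genes were picked out after the values were seen.

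Other factors of these lineages were counted from lists. Of 3 further genes listed here under V0, 1 reached 1 FPKM and 2 had no fragment. Bhlhe22, a basic helix-loop-helix factor, was at 4.45 FPKM in sample 1, 2.39 in sample 5 and 10.5 in sample 7, all Dbx1;Ai148, and at most 0.0135 FPKM in CD-1 neurons. It was called higher in Dbx1;Ai148, the only line in which it passed the filter. Sample 6, the neuron with the most Lhx1 and Pax2, had no Bhlhe22, and sample 1 held En1 at 7.41 FPKM beside it. The place of Bhlhe22 in the V0 list was a choice, and its level is not read here as a sign of that lineage. Of 4 further V1 genes 2 reached 1 FPKM, both called higher in CD-1, against 26.9% of all genes. Both passed the filter through the CD-1 line alone, which all but fixes the call, and 0 were called for means of log2 values. Foxd3, a forkhead factor of V1 neurons, was at 11.4 FPKM in sample 10 and at 0 in all others, sample 1 included.

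The V2, V3 and motoneuron genes that were detected appeared mostly in single CD-1 neurons. Of 7 V2a genes 3 reached 1 FPKM, and Shox2, a factor of excitatory rhythm-related interneurons, was at 49.7 FPKM in sample 8 with 3.40 in sample 4, while Lhx3 was at 17.5 FPKM in sample 8 and Sox21 at 2.87 FPKM in sample 5. Sample 8 is the CD-1 neuron that shared Lhx5 and Slc17a6 with samples 5, 6 and 7. Of 3 V2b genes 2 reached 1 FPKM, Gata3 at 36.0 FPKM in sample 2 with 1.43 in sample 5, and Tal1 at 10.6 FPKM in sample 4 alone, the library rich in microglia markers. Sample 2 is the CD-1 neuron with the high Lhx1. Of 6 motoneuron factors 4 reached 1 FPKM, led by Isl1 at 38.1 and Phox2a at 11.6 FPKM in sample 9, the neuron with motoneuron markers and none of the 8 factors above 1 FPKM. Tbx20 was at 4.62 FPKM in that neuron. Of 2 V3 genes 1 reached 1 FPKM, Nkx2-2 at 9.67 FPKM in sample 2. Called by line, 2 of 2 V2a, 2 of 2 V2b, 1 of 1 V3 and 3 of 3 motoneuron genes compared were higher in CD-1 neurons, against the 26.9% of all genes. For means of log2 values, which give a single high neuron less weight, these counts were 1, 0, 0 and 0. Each of these genes passed the filter through the CD-1 line alone, with a mean of at most 0.370 FPKM in Dbx1;Ai148. A gene at 0 in the other line that does so is always called, so these counts follow largely from the rule. Without samples 1 to 4, no V2b or V3 gene was compared.

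Of 24 further genes listed here under dorsal, 6 reached 1 FPKM and 13 had no fragment in any neuron. The place of a gene in this list was a choice, and its level is not read here as a sign of a dorsal lineage. Pax8 was at 36.8 FPKM in sample 1 and 34.1 in sample 10, with at most 0.0578 FPKM in every other neuron, and its means by line differed by less than 2-fold. Gbx2, a homeobox gene, was at 140.1 FPKM in sample 1, 41.4 in sample 2, 23.8 in sample 10 and 5.44 in sample 5, and Barhl1 at 27.2 FPKM in sample 2 alone. Barhl2 was at 7.11 and Pou4f1 at 1.25 FPKM in sample 9, and Gbx1 at 2.92 FPKM in sample 8. Of the 4 genes of this list compared by line, 1 was higher in Dbx1;Ai148 and 2 in CD-1 neurons, against 28.4% and 26.9% of all genes. For means of log2 values these counts were 0 and 0, and without samples 1 to 4 they were 0 and 3 of 3 compared.

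**Figure D3:**
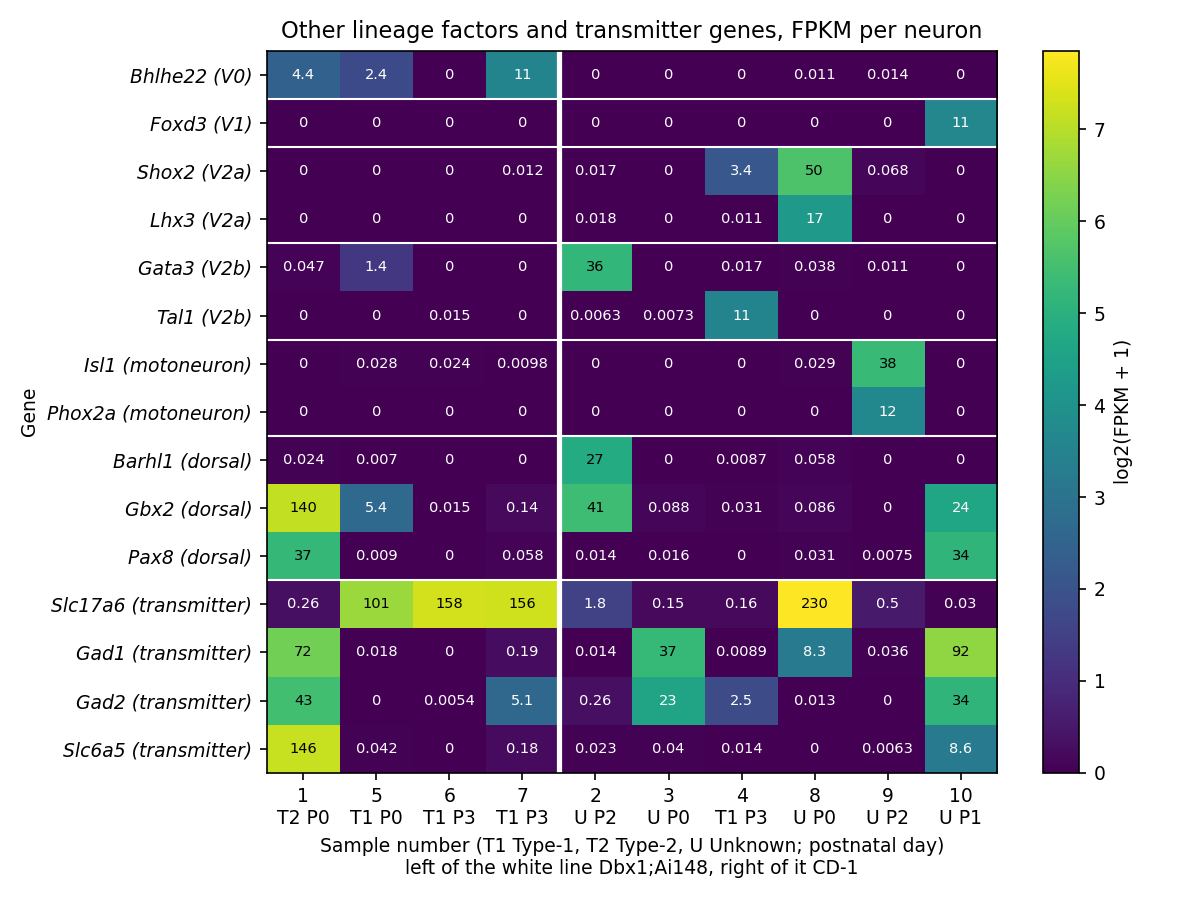
Heat map of the other lineage factors and transmitter genes that reached 10 FPKM in some neuron, at most 5 a list (rows, with their list). Columns are the 10 neurons, ordered as in the heat map of the 8 factors, colour giving log2(FPKM + 1) and numbers giving FPKM. Genes named in the text that stayed below 10 FPKM, Slc32a1 among them, are not drawn. Slc17a6 is high in samples 5 to 8, Slc6a5 in samples 1 and 10, Gad1 and Gad2 in samples 1, 3 and 10, and Shox2 and Lhx3 lie in sample 8.

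LIM-homeodomain proteins act through Ldb1, which was at 9.15 to 27.6 FPKM in 9 neurons and at 0.0180 FPKM in sample 2, the CD-1 neuron with 43.5 FPKM of Lhx1. All 7 LIM cofactor genes reached 1 FPKM in some neuron, and 3 of 7 were called higher in CD-1, against 26.9% of all genes. Lmo2, a LIM-only protein best known from blood cell development, was at 6.23 to 76.5 FPKM in CD-1 and at most 0.132 FPKM in Dbx1;Ai148 neurons, a log2 difference of -5.33. Microglia markers were higher in the same line. Lmo2 was at 23.6 FPKM in sample 9, with the lowest microglia sum of 0.667 FPKM, and at 63.4 FPKM in sample 4, with the highest of 15054 FPKM. The part of microglial transcripts in the Lmo2 difference was not tested. Of 7 genes for TALE cofactors, homeodomain partners of Hox and other factors, 4 were called higher in Dbx1;Ai148, against 28.4% of all genes, and 0 in CD-1. Without samples 1 to 4 these numbers were 2 and 1 of 6 compared. Meis1 was at 13.2 to 23.0 FPKM in all 4 Dbx1;Ai148 neurons and, among CD-1 neurons, at 13.6 FPKM in sample 8, 2.77 in sample 9 and at most 0.123 FPKM in the rest. Pbx3 was highest in sample 10 at 179.7 and in sample 7 at 81.6 FPKM.

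Low counts in a library can come from the other libraries of a run, so the number expected was estimated from genes nearly private to 1 library. Genes with 3000 counts or more in a single library, and no more than 1% of that number in any other, gave a median rate of 0.0184% per pair of libraries, and the highest rate was 0.261%. The rates of a library rested on 3 to 57 such genes. The 1% limit, like the 2% limit used below, caps the rate by the choice of genes. A higher rate could not have been found, and the expected numbers are bounded in the same way. All 19 combinations at 1 FPKM or more had at least 208 fragments, and the number expected from the other libraries was at most 1.46% of the count. Of the 20 combinations with a fragment but below 1 FPKM, 12 had a count whose interval held, or lay under, the expected number. The other 8 lay above it, with Pax2 at 60 fragments in sample 3 against 0.483 expected, Pax2 at 87 in sample 8 against 3.92, En1 at 38 in sample 2 against 0.205, and Lhx5 at 37 in sample 10 against 0.265. Evx2 at 6 fragments in sample 3 and 14 in sample 8, and Lhx1 at 42 in sample 4 and 55 in sample 8, against 1.01, 1.49, 7.44 and 19.99 expected, were the rest. With limits of 1000 counts and 2% the median rate was 0.0437%, the highest 0.768% and the largest expected share of a count 2.52%, and again 12 combinations held or lay under the expected number and 8 lay above it. Lhx1 at 15 fragments in sample 9, against 14.1 expected, was within the interval, so a low Lhx1 level there was not detectable beyond the level shared among libraries.

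**Figure D4:**
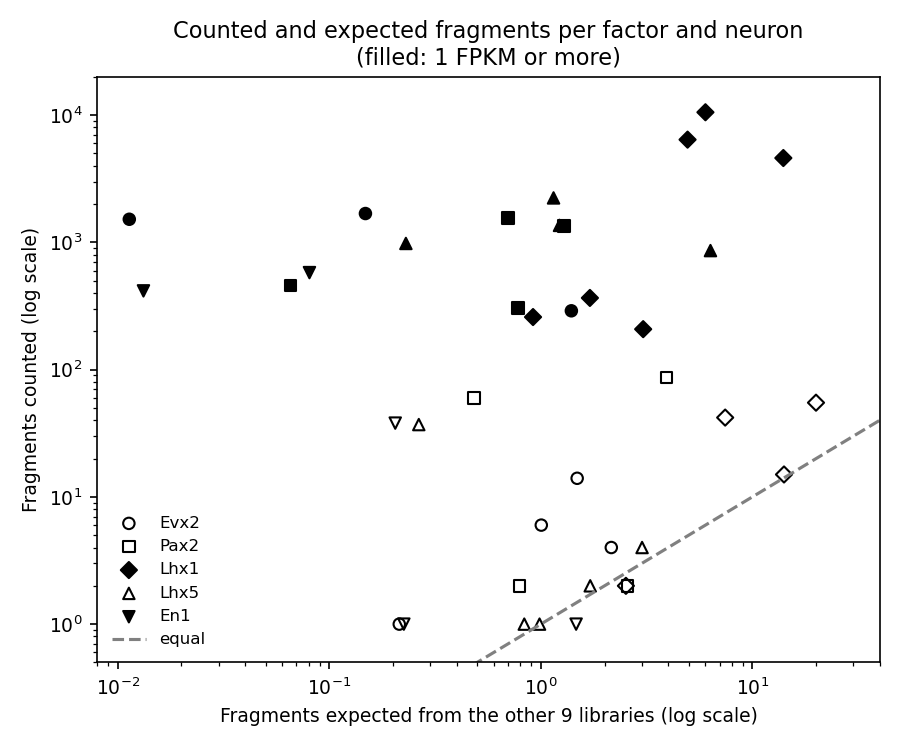
Fragments counted (vertical, log scale) against the fragments expected from the other 9 libraries (horizontal, log scale) for the 39 combinations of a factor and a neuron with a fragment, symbols giving the factor and filled symbols 1 FPKM or more. Combinations without a fragment are not drawn, the dashed line marks equal numbers, and all filled symbols, at 208 fragments or more, lie far above it.

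Genes next to the factors were checked because the cDNA kit keeps no strand, so a gene and a transcript antisense to it cannot be told apart where they overlap. Gm27199, which overlaps Lhx5 on the other strand, was at 7.23, 10.6 and 8.52 FPKM in samples 5, 7 and 8 and at 0 in sample 6, where Lhx5 was at 16.1 FPKM. Gm20395, which overlaps Pax2 on the other strand, was at 6.21 FPKM in sample 5 and 0 in all others, including sample 6 with the highest Pax2. Lhx1os, a long non-coding RNA gene that starts or ends 124 bases from Lhx1 without overlapping it, was at 181, 104.9 and 124.0 FPKM in samples 5, 6 and 7, 84.4 in sample 2, 33.7 in sample 8 and 17.3 in sample 10, and at most 0.454 FPKM in the other neurons. It was thus high where Lhx1 was high and also in samples 7 and 8, in which Lhx1 was at 2.48 and 0.508 FPKM. Evx1os, antisense to Evx1, had no fragment, as Evx1 had none.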

How the data were processed

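RNA of 10 single preBötC neurons was converted to cDNA with SMART-Seq v4 and sequenced in pairs. The authors trimmed the reads, aligned them to GRCm38 with STAR (2.7.7a in the submitters' processing notes, which also name FastQC 0.11.8) and summed fragments over genes with featureCounts. They deposited the counts without normalization, and FPKM values that equal the counts per kilobase scaled to the counted total. Counting options for fragments that match several genes are not given in the sources used here.

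Groups came from the labels, from which legends of the study's figures depart for some samples. No test was run, since the labels name no animal. Genes with a mean of 1 FPKM in at least 1 line were compared and called at a difference of 1 or more in log2(mean FPKM + 1), a scale that understates changes of low genes. Totals ran from 21392146 to 36629393 fragments. Exact 95% Poisson intervals and the limit of 3 counts behind a 0 cover counting error only. Alternatives were TPM, TMM (edgeR 4.0.16) and DESeq2 1.42.0 scaling, a pseudocount of 0.1, no filter, means of log2 values, thinning, subtraction of expected counts, and leaving out neurons. Dixon's criterion was used only to point to neurons. The calling rule and the expected counts were tried on simulated data. For the calling rule, the simulated counts varied by counting error only, without the spread between neurons. That simulation therefore cannot show how often the spread between neurons alone gives a call. The 8 factors, the lists and the settings were chosen with earlier results of these data known. Genes named from other lists reached 10 FPKM in some neuron, at most 5 a list, and some listed genes are not reported here. Slc32a1, Sox21, Tbx20, Nkx2-2, Barhl2, Pou4f1, Gbx1, Lhx1os and the antisense genes fall outside that rule and were chosen after their values were seen, as do the single markers named to describe libraries. For likeness, the 3 genes with the highest Pearson correlation were taken. Positions are from GENCODE M21, which holds 53365 of the 55367 symbols. Versions were R 4.3.3, Matplotlib 3.10.9, SciPy 1.17.1, pandas 2.3.3, NumPy 2.4.6 and Python 3.11.15.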

Additional observations from a re-analysis of the deposited data

Results flagged for a closer look

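In 6 of the 10 groups examined, each a factor within a line, a single neuron was set off by a gap larger than Dixon's critical value, which chance exceeds in about 1 of 20 groups of normally distributed values. FPKM values with many zeros are skewed and exceed it more often, so the criterion only points to neurons here and is no test. The groups share neurons and are not independent.

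In CD-1 neurons, sample 8 stood apart for Lhx5, at 12.1 FPKM with the next at 0.451, and for Evx2, at 0.126 FPKM, from 14 fragments, with the next at 0.0460. Sample 10 stood apart for Pax2, at 2.77 FPKM with the next at 0.606, and for En1, at 7.23 FPKM with the next at 0.399. Sample 2 stood apart for Lhx1, at 43.5 FPKM with the next at 2.95. In Dbx1;Ai148 neurons, sample 1 stood apart for En1, at 7.41 FPKM with the next at 0.0148.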

How the results depend on the processing

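At a level of 10 FPKM in place of 1 FPKM, 9 combinations of a factor and a neuron were counted in place of 19. That count was 22 as TPM, 27 at 0.1 FPKM, 19 after thinning and after subtracting expected counts, and 15 to 19 without each neuron in turn. It was 17 without samples 2, 3 and 8 and 16 without samples 1 to 4, alternatives chosen after seeing the data. The number of factors called higher in Dbx1;Ai148 was 4 under each other scaling, pseudocount, filter and average tried and 3 to 5 without each neuron in turn. With DESeq2 size factors En1 (1.88) and not Lhx1 (0.33) was among the 4. The number called higher in CD-1 was 0 under these settings and 0 to 1 without each neuron in turn, the 1 being En1 without sample 1, and 1, again En1, without samples 1 to 4. Evx2 had a difference of 5.73 with a pseudocount of 0.1, and the order of the factors by difference changed with the setting, with Lhx5 (2.41) and Lhx1 (2.28) above Evx2 (2.26) for means of log2 values. Over all genes, the median difference of 0.08 became 0.44 as TPM, -0.16 with TMM library sizes, -0.41 with DESeq2 size factors and 0.24 for means of log2 values. With a pseudocount of 0.1, none of the 3 genes nearest to Pax2 and 1 of those nearest to Lhx5 stayed. No paired analysis was possible because the labels give no replicate number shared between the lines and no test was made. At a total of 21392146 fragments, the smallest, 3 counts of Evx2 correspond to less than 0.1 FPKM, while samples 1 to 4 began with the least cDNA.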
